A study of Danio rerio with 6 samples.

Results

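The genes described here lie on the distal arm of zebrafish chromosome 4. A member is any gene of the deposited abundance tables on chromosome 4 that starts at base 60000000 or beyond and reaches 1 TPM in 3 or more libraries, with rows of one gene ID summed. TPM is an expression level per unit of transcript length, and each library's values add up to one fixed sum. This gave 255 members among 621 genes listed there, and 121 of the 366 genes left out were listed at 0 TPM in every library. The first member was znf1109, starting at base 60001731, and the last was ENSDARG00000101049.2, starting at base 78058635. Just inside the limit, ENSDARG00000099529.2 had a third-highest value of 1.01 TPM. Just outside it, si:ch211-76m11.8 had 0.997 TPM. The members are gene models of several kinds: 151 carry clone-based or automatic names, 37 have no symbol, 24 have a zinc finger symbol, 14 belong to the ms4a17a group, 2 are 5.8S ribosomal RNA genes and 27 have other gene symbols.

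The study compared whole, untreated zebrafish larvae at 5 days post fertilization labelled (stim2a;stim2b)-/- with larvae labelled (stim2a;stim2b)+/+. Each genotype had 3 samples, and each sample was RNA pooled from 30 larvae. Both genes encode endoplasmic reticulum calcium sensors of store-operated calcium entry. The sources used here do not give the parental strain, the clutch or the mutant alleles. A p-value here therefore reflects the spread between these pools only.

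The long arm of zebrafish chromosome 4 is known as an unusual piece of vertebrate genome. It is heterochromatic, replicates late, is rich in repeats and small RNA genes, and carries tandem arrays of C2H2 zinc finger genes and of genes for NLR proteins, which act in innate immune sensing. In wild strains it also carries a region linked to sex. Gene content and copy number of such arrays differ between fish, so neighbouring genes that differ together between samples can mark a different haplotype as well as a change in transcription. RNA levels do not separate these, and haplotype and copy number were not tested here.

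The RNA of the targeted genes went against the genotype labels. On chromosome 1, stim2a stood at 1.31, 1.41 and 1.20 TPM in libraries labelled -/- and at 0.329, 0.252 and 0.403 TPM in libraries labelled +/+. On chromosome 7, stim2b stood at 1.52, 1.34 and 1.85 TPM in libraries labelled -/- and at 0.542, 0.475 and 0.722 TPM in libraries labelled +/+. Both were higher in the libraries labelled -/- (log2 fold changes 1.13 and 0.94, limma adjusted p 0.0021 and 0.0087). Both genes reached 1 TPM only in the libraries labelled -/- and were tested only through them, so these tests are descriptions. Every direction below belongs to the libraries as labelled. The names of the deposited tables also go against the labels. In the authors' deposited table, which does not state its direction, all 54 members called here have the sign opposite to -/- minus +/+. Whether the labels are swapped was not tested, and a swap would turn every direction given here. Total read counts are not given in the tables used here. Mitochondrial genes took 6.93 to 9.29% of TPM in libraries labelled -/- and 8.498 to 10.3% in those labelled +/+.

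Most members were weakly expressed and did not differ by the test. The median member had a mean of 1.87 TPM over the 6 libraries, against 7.44 TPM for the median of all 20330 tested genes, and 133 members had a mean under 2 TPM. A gene was called when its adjusted p from limma, fitted on log2(TPM + 0.5) over all 20330 genes with Benjamini-Hochberg adjustment, was under 0.05. By this rule 54 of the 255 members were called, which is 21.2%, beside 39.6% of all tested genes. Of the members, 29 were higher in libraries labelled -/-, beside 30.8% of all tested genes, and 25 were lower, beside 8.76%.

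The direction of these counts depended on the scaling of the libraries. The median log2 fold change, libraries labelled -/- minus libraries labelled +/+, was 0.08 over the members and 0.22 over all tested genes. After rescaling each library by its median gene ratio, which brings the median of all tested genes to 0.00, the median over members was -0.11. There 20 members were called higher, beside 22.0% of tested genes, and 59 were called lower, beside 22.4%. With the replicate number as a block, 83 members were called, beside 58.8% of all tested genes. Without replicate 1 labelled +/+ the count was 13 members, without replicate 2 labelled +/+ it was 11, and without replicate 1 labelled -/- it was 34. The same fits called 891, 657 and 4418 of all 20330 tested genes.

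Large changes were few, and most calls were lost in at least 1 of the fits that left out 1 library. Called members whose log2 fold change reached 1 in either direction numbered 11, beside 5.66% of all tested genes, and 5 of them were lower, beside 0.930%. These 5 were ENSDARG00000105731.2, ENSDARG00000105749.2, ENSDARG00000105829.2, si:ch73-170d6.2 and si:cabz01069013.3. All are members only through the libraries labelled +/+, where they are high, so this count is a description. Among the 43 members with a mean of at least 5 TPM, 23 were called in a fit of such genes, beside 41.0% of them. Leaving out replicate 1 or replicate 2 labelled +/+ lowered the calls over all 20330 tested genes from 8046 to 891 and 657. A lost call is therefore not particular to the arm. In each of the 6 fits that leave out 1 library, 11 members were called in the same direction as with all libraries. The other 43 lost the call at least once. The matching count over all 20330 tested genes is not given, and it cannot exceed 657. Whether 11 is few or many for the arm is therefore not shown. Of the 11, the 8 lower ones were ENSDARG00000105731.2, ENSDARG00000105749.2, ENSDARG00000105829.2, si:ch73-170d6.2, si:cabz01069013.3, ms4a17a.11, ENSDARG00000105689.2 and psmb10. The 3 higher ones were ENSDARG00000111458.1, ENSDARG00000105756.2 and zgc:171551. A member that reached 1 TPM only in the group where it is high had to differ, and this holds for 5 of these 11, namely the first 3 of the lower list, si:cabz01069013.3 and zgc:171551. A further one, si:ch73-170d6.2, reached 1 TPM in only 1 library labelled -/-, so it too is a member only through the libraries labelled +/+. In all, 14 members reached 1 TPM in all 3 libraries of one label and in none of the other, and 8 of these were called, 1 of them higher. Separation of the labels in all 6 libraries was seen for 121 members, of which 72 were higher and 49 lower in libraries labelled -/-, which is 47.5% of members beside 55.8% of all tested genes.

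**Figure D1:**
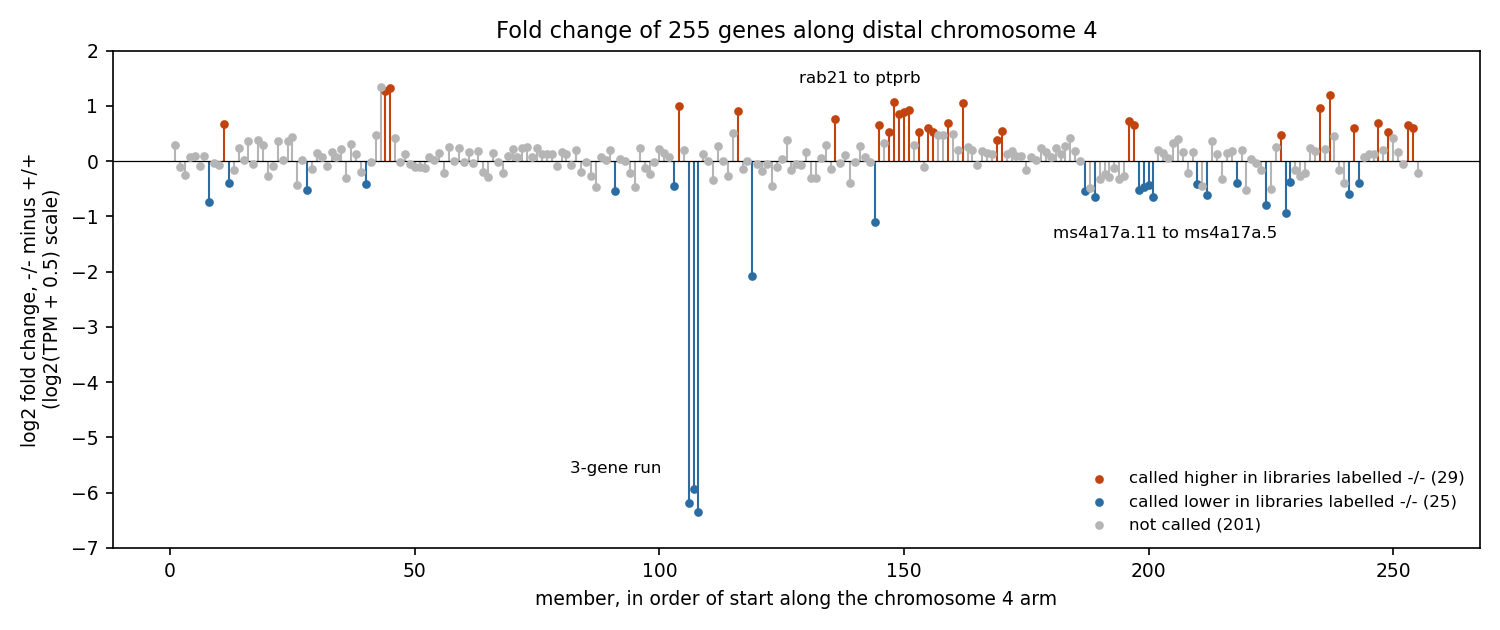
Log2 fold change of each of the 255 members (y axis, libraries labelled -/- minus libraries labelled +/+, log2(TPM + 0.5) scale) in order of start along the arm (x axis, rank). Red points are the 29 members called higher, blue points the 25 called lower and grey points the rest; 3 neighbouring genes stand near -6 and most other members lie within 1 of 0.

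Neighbouring members that differed together were looked for as runs, meaning 3 or more consecutive members called in the same direction. There were 3 runs, with 12 members in all: 3 lower genes near 72.5 Mb, 5 higher genes near 74.1 Mb and 4 lower ms4a17a genes near 76.6 Mb. Over the other 20075 tested genes, in chromosome order, the same rule gave 515 higher and 43 lower runs. Lower runs came at 7.84 per 1000 members and at 2.14 per 1000 other genes, and higher runs at 3.92 per 1000 members and at 25.7 per 1000 other genes. The rate of lower runs on the arm rests on 2 runs, and the genes near 72.5 Mb are members only through the libraries labelled +/+. No test of these differences in rate was made. With the replicate block there were 5 runs on the arm, and after rescaling there were 6. Matching counts over the other tested genes are not given for these fits. After rescaling 22.4% of all tested genes were called lower, beside 8.76% with TPM as deposited. When the first -/- library, the first +/+ library or the second +/+ library was left out, only the run near 72.5 Mb was found.

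The genes of the first run were listed at or next to 0 TPM in every library labelled -/- and at 28.2 TPM or more in every library labelled +/+. It consists of 3 genes on the minus strand of chromosome 4, which have no functional name and which the files place between bases 72463842 and 72513569, a span of 49.7 kb that holds no other listed gene. The first, ENSDARG00000105731.2, spans bases 72463842 to 72476526. It was listed at 0 TPM in all 3 libraries labelled -/- and at 34.5, 37.7 and 35.7 TPM in libraries labelled +/+. The next gene, ENSDARG00000105749.2, spans bases 72486529 to 72488135. It had 0.000122, 0.000225 and 0.000109 TPM in libraries labelled -/- and 28.2, 33.4 and 29.4 TPM in libraries labelled +/+. The last, ENSDARG00000105829.2, spans bases 72500840 to 72513569. It had 0.0219, 0.0367 and 0 TPM in libraries labelled -/- and 40.4, 45.7 and 40.6 TPM in libraries labelled +/+. For all 3 genes the groups were far apart, and no library lay between them.

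All 3 genes are members only through the libraries labelled +/+, so their test is a description and adds no support. The fitted log2 fold changes of the 3 genes were -6.19, -5.94 and -6.36, with limma adjusted p between 1.13e-07 and 1.9e-07. Their size follows the pseudocount and is no bound: with a pseudocount of 0.1 they were -8.49, -8.24 and -8.48, and with 1 they were -5.21, -4.97 and -5.40. In the authors' deposited table, whose direction is not stated there, the log2 fold changes of the 3 genes were 9.32, 8.42 and 8.75, and the mean normalized counts were 2535, 1285 and 2095. Summed over the 3 genes, the libraries labelled +/+ held 103, 117 and 106 TPM. Only 28 of all tested genes, or 0.138%, were listed at 0 TPM in all 3 libraries of one group, and ENSDARG00000105731.2 was the only member among them; as it was chosen through the other label, this is a description too.

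The members next to the run were not called. On the side of lower coordinates, si:ch211-161m3.6 had a log2 fold change of 0.21 (limma adjusted p 0.213). On the other side, zgc:175107 stood at 5.21, 4.93 and 4.99 TPM in libraries labelled -/- and at 4.77, 4.33 and 4.52 TPM in libraries labelled +/+, with a log2 fold change of 0.14. The next member, si:ch211-161m3.4, had a log2 fold change of 0.00. Neither was called, and their small differences turned negative after rescaling. The member before si:ch211-161m3.6, ENSDARG00000105756.2 at bases 72430431 to 72431296, was higher in libraries labelled -/-. It had 3.31, 3.26 and 3.53 TPM in libraries labelled -/- and 1.15, 1.87 and 1.32 TPM in libraries labelled +/+. No overlap was seen between the groups (log2 fold change 1.01 ± 0.16 SE, limma adjusted p 0.0087).

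**Figure D2:**
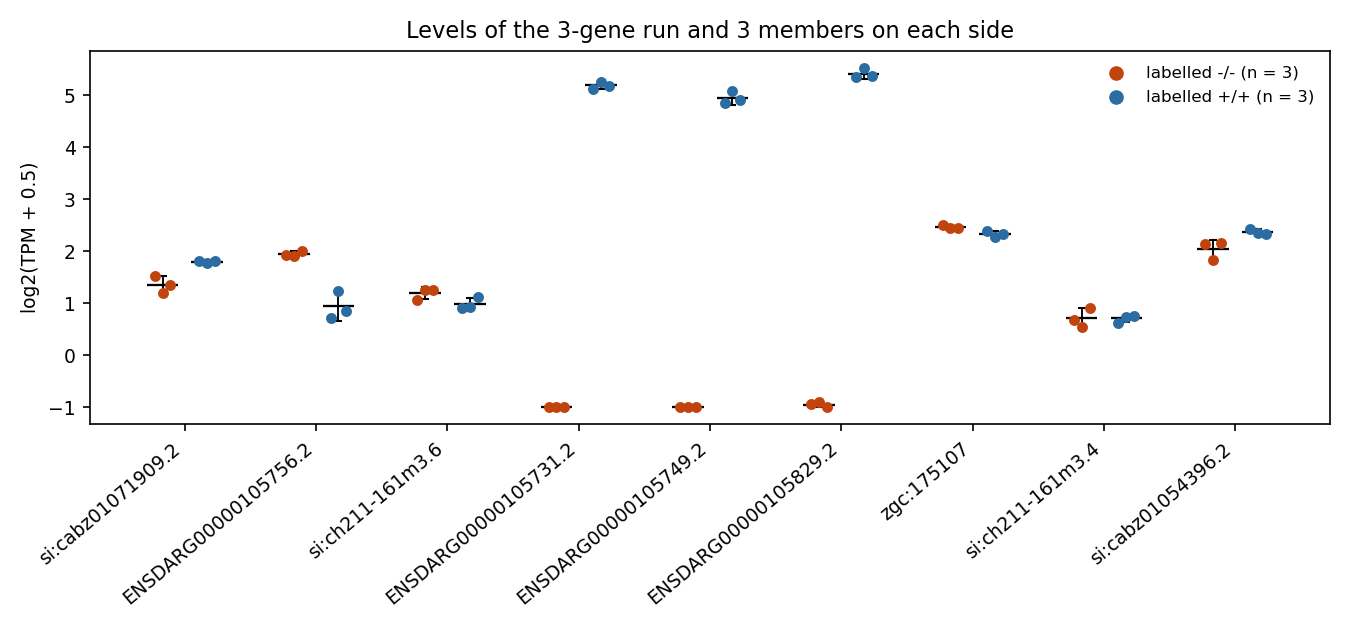
Level of the 3-gene run and of the 3 members on each side, as log2(TPM + 0.5) (y axis), in chromosome order (x axis); points are libraries, red labelled -/- and blue labelled +/+, lines are means and bars SD (n = 3 each). The 3 genes of the run sit near -1, the value of 0 TPM, in libraries labelled -/- and near 5 in libraries labelled +/+, while si:ch211-161m3.6, zgc:175107 and si:ch211-161m3.4 are close in both.

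Further large differences near the run stood alone. At bases 73085993 to 73109752, si:ch73-170d6.2 had 1.04, 0.695 and 0.719 TPM in libraries labelled -/- and 4.82, 5.09 and 5.20 TPM in libraries labelled +/+, without overlap. Its mean in libraries labelled -/- was 0.162 of that in libraries labelled +/+ (log2 fold change -2.08 ± 0.14 SE, limma adjusted p 0.00016). At bases 74002176 to 74009156, si:cabz01069013.3 had 0.367, 0.545 and 0.328 TPM in libraries labelled -/- and 1.41, 1.27 and 1.71 TPM in libraries labelled +/+ (log2 fold change -1.11 ± 0.15 SE, limma adjusted p 0.0049). Both are members only through the libraries labelled +/+, since si:ch73-170d6.2 reached 1 TPM in only 1 library labelled -/-. Their tests are therefore descriptions. Between them, zgc:171551, a member only through the libraries labelled -/-, had 1.49, 1.31 and 1.37 TPM in libraries labelled -/- and 0.540, 0.756 and 0.567 TPM in libraries labelled +/+. On the same strand it overlaps si:dkey-262g12.14 by 29070 bases and ENSDARG00000105816.2 by 16662 bases. Neither of these was called (log2 fold changes -0.14 and -0.03), and the assignment of reads among them is uncertain. The nearby myrfl, a myelin regulatory factor-like gene, had 9.51, 8.04 and 12.3 TPM in libraries labelled -/- and 3.95, 4.52 and 6.95 TPM in libraries labelled +/+. It was called higher, with a log2 fold change of 0.90 (limma adjusted p 0.0214).

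The second run was higher and lies in a stretch of the arm where many genes have symbols and known products. In order along the chromosome, from base 74087575 to 74367912, it holds rab21, si:cabz01062511.2, trim24, ptprr and ptprb. A small GTPase of endosomes is the product of rab21, which had 42.3, 41.1 and 56.3 TPM in libraries labelled -/- and 29.1, 31.8 and 34.5 TPM in libraries labelled +/+. The groups did not overlap, and the ratio of means was 1.46. Next to it si:cabz01062511.2 had 4.30, 3.34 and 7.08 TPM in libraries labelled -/- and 1.62, 1.73 and 2.70 TPM in libraries labelled +/+. A chromatin-reading transcriptional coregulator is encoded by trim24, which had 7.10, 5.01 and 8.26 TPM in libraries labelled -/- and 3.15, 3.09 and 4.16 TPM in libraries labelled +/+. Neither gene's groups overlapped.

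The last genes of this run encode receptor-type tyrosine phosphatases. For ptprr the levels were 3.31, 3.24 and 5.47 TPM in libraries labelled -/- and 1.496, 1.46 and 2.88 TPM in libraries labelled +/+. For ptprb, known from vascular endothelium, they were 6.48, 5.52 and 8.17 TPM in libraries labelled -/- and 2.92, 2.84 and 4.13 TPM in libraries labelled +/+. These models overlap by 832 bases on opposite strands, and the sources used here do not say whether reads were counted by strand. In all 5 genes of the run, replicate 3 was the highest library of its genotype label.

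Log2 fold changes in this run were 0.53 to 1.07, and after rescaling 0.29 to 0.86, where all 5 genes were still called by limma (highest adjusted p 0.046). Every one of the 5 lost the call without replicate 1 or replicate 2 labelled +/+, with adjusted p by limma up to 0.118. Without replicate 1 labelled -/-, the calls of si:cabz01062511.2, trim24 and ptprr were lost, and without replicate 3 labelled -/- that of ptprr was lost. With the replicate block the adjusted p of ptprr was 0.00059.

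Higher levels were also seen in members beyond the run. Right after ptprb, ENSDARG00000091499.4, which is no member, went the other way. It had 0.730, 0.704 and 0.786 TPM in libraries labelled -/- and 1.04, 0.897 and 1.27 TPM in libraries labelled +/+. Of 20 members starting from 74 Mb up to slc2a13a and CPNE8 near 75.3 Mb, 18 had a log2 fold change above 0, 11 were called higher, beside 30.8% of all tested genes, and 1, si:cabz01069013.3, was called lower. Their median log2 fold change was 0.53, beside 0.22 over all tested genes, and after rescaling it was 0.30, beside 0.00. As the median of 0.22 is above 0, most tested genes also had a log2 fold change above 0 with TPM as deposited. The limits of this stretch were set after its values were seen. After rescaling 7 were called higher, beside 22.0% of all tested genes, and 5 of these 7 are the run itself. With TPM as deposited, called members outside the run were ENSDARG00000116221.1, the voltage-gated potassium channel gene kcna1b (log2 fold change 0.53), the PHD finger gene phf21b (0.60), the nuclear pore gene nup50 (0.54), si:cabz01066312.1 (0.69) and slc2a13a (1.05). After rescaling ENSDARG00000116221.1, kcna1b, phf21b and nup50 lost the call, with limma adjusted p of 0.070 to 0.084. The solute carrier gene slc2a13a encodes a proton-coupled myo-inositol transporter and had 1.53, 1.55 and 2.66 TPM in libraries labelled -/- and 0.355, 0.618 and 1.03 TPM in libraries labelled +/+, without overlap. It is a member only through the libraries labelled -/-, as only 1 library labelled +/+ reached 1 TPM, so its test is a description. An N-terminal acetyltransferase gene, NAA40, was not called, with a log2 fold change of 0.21 (limma adjusted p 0.162).

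**Figure D3:**
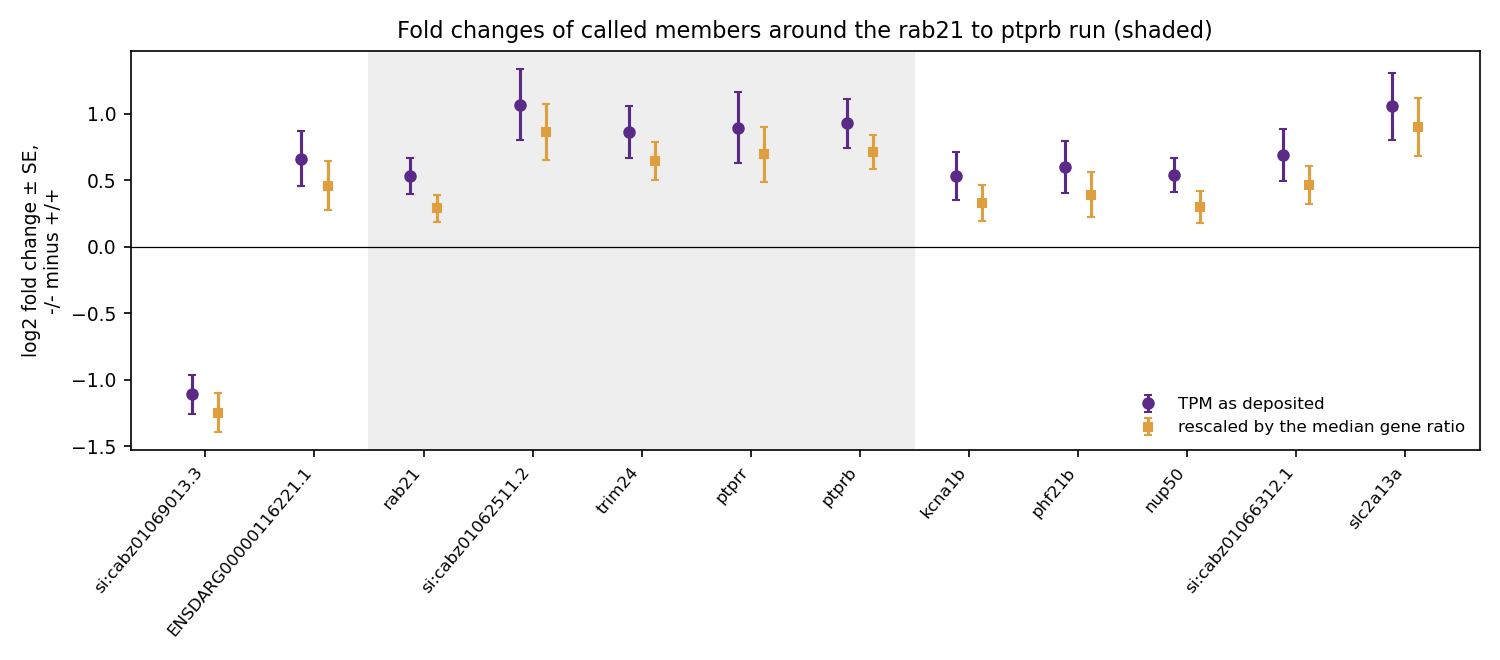
Log2 fold change ± SE (y axis, libraries labelled -/- minus libraries labelled +/+) of the 12 called members of this stretch in chromosome order (x axis), with circles for TPM as deposited and squares for rescaled TPM; the 5 genes of the run are shaded. All circles but that of si:cabz01069013.3 lie between 0.53 and 1.07, and every square lies below its circle.

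Cell type markers were read beside this stretch. Of 7 neuron markers, 5 were called higher, beside 30.8% of all tested genes, and 1 lower, beside 8.76%. After rescaling 5 of these markers were higher and 2 lower, beside 22.0% and 22.4% of all tested genes. Their summed level was 840 to 1028 TPM in libraries labelled -/- and 727 to 852 TPM in libraries labelled +/+. Of 6 rod photoreceptor genes 4 were called higher, and 3 after rescaling, and their summed level was 1154 to 1942 TPM in libraries labelled -/- and 325 to 654 TPM in libraries labelled +/+. In whole larvae, fewer cells of a type and less RNA per cell cannot be told apart. The part of these cell types in the values of the arm was not tested.

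The ms4a17a genes encode four-pass membrane proteins of the MS4A family, whose mammalian members include a B cell surface antigen and a receptor chain of mast cells. Of the 14 ms4a17a members, 2 were called higher and 4 lower in libraries labelled -/-, which is 42.9% called, close to the 39.6% of all tested genes. After rescaling 1 was higher and 4 lower, beside 22.0% and 22.4% of all tested genes. The 4 lower ones were neighbours, from base 76575585 to 76667229. The most abundant, ms4a17a.11, had 42.0, 41.7 and 42.3 TPM in libraries labelled -/- and 59.0, 59.9 and 62.8 TPM in libraries labelled +/+. The libraries of each label kept apart, and the mean in libraries labelled -/- was 0.694 of that in libraries labelled +/+ (log2 fold change -0.52 ± 0.07 SE, limma adjusted p 0.0063). Its call was kept in each fit that left out 1 library, with adjusted p by limma up to 0.0439.

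The other 3 genes of this run were lower by similar amounts. Levels of ms4a17a.9 were 24.3, 20.6 and 18.9 TPM in libraries labelled -/- and 29.8, 26.4 and 32.6 TPM in libraries labelled +/+. Levels of ms4a17a.8 were 3.11, 3.01 and 2.84 TPM in libraries labelled -/- and 4.25, 4.51 and 3.89 TPM in libraries labelled +/+. Levels of ms4a17a.5 were 2.64, 1.94 and 2.60 TPM in libraries labelled -/- and 4.56, 3.46 and 4.001 TPM in libraries labelled +/+. No library of one label reached into the range of the other in any of them, and the log2 fold changes were -0.47, -0.43 and -0.64. All 3 lost the call by limma without replicate 1 or replicate 2 labelled +/+ (highest adjusted p 0.111). In addition, ms4a17a.9 and ms4a17a.8 lost it without replicate 3 labelled -/-, and ms4a17a.8 without replicate 1 labelled -/-.

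Immediately before this run lie 2 members of the same family that were called the other way. Levels of ms4a17a.17 were 1.35, 1.59 and 2.46 TPM in libraries labelled -/- and 0.761, 0.728 and 1.14 TPM in libraries labelled +/+. This gene is a member only through the libraries labelled -/-, as only 1 library labelled +/+ reached 1 TPM, so its test is a description. Levels of ms4a17a.16 were 7.14, 8.86 and 10.95 TPM in libraries labelled -/- and 4.09, 5.60 and 7.01 TPM in libraries labelled +/+. Their log2 fold changes were 0.72 and 0.65, and the second lost its call after rescaling (limma adjusted p 0.064). Behind the run, ms4a17a.2 and ms4a17a.1 were not called, with log2 fold changes of 0.21 and 0.15. Summed over the 14 genes, libraries labelled -/- held 111, 107 and 107 TPM and libraries labelled +/+ held 129, 126 and 138 TPM. These genes are related in sequence, so reads shared between copies could be assigned to either.

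**Figure D4:**
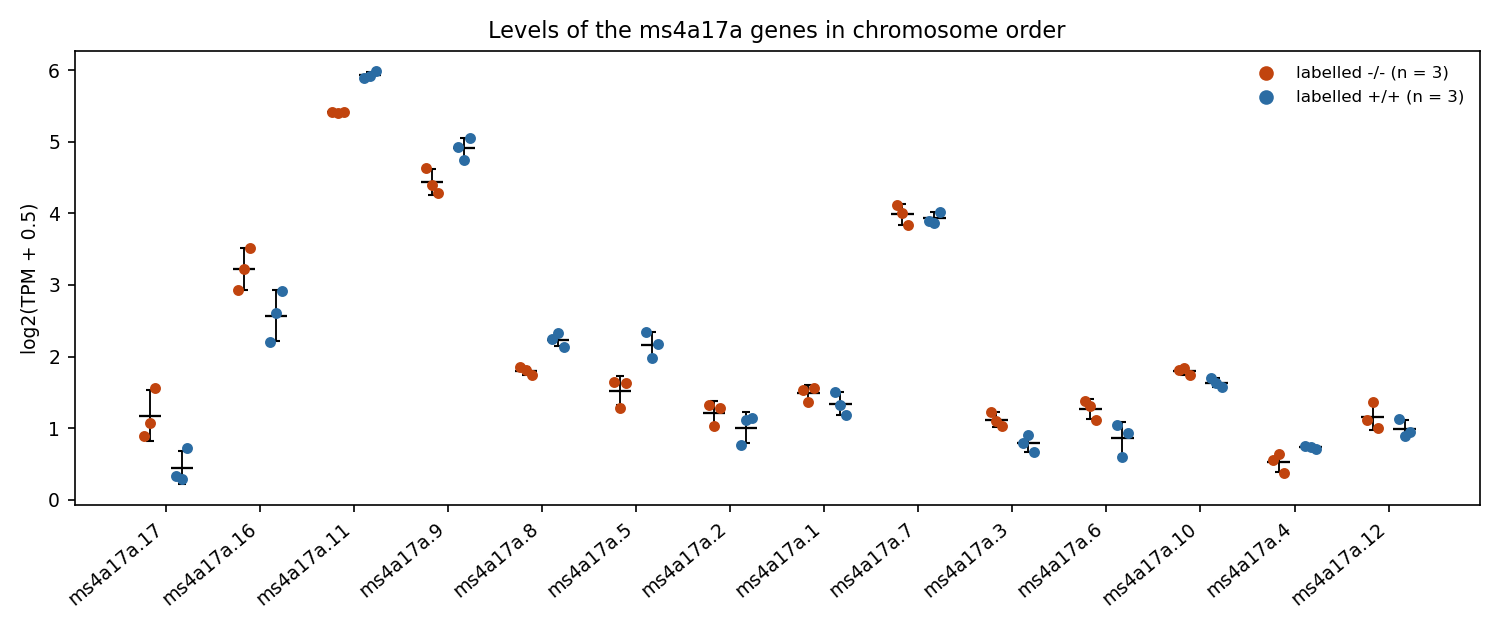
Level of the 14 ms4a17a members, as log2(TPM + 0.5) (y axis), in chromosome order (x axis); points are libraries, red labelled -/- and blue labelled +/+, lines are means and bars SD (n = 3 each). The first 2 genes are higher in libraries labelled -/-, the next 4 are lower, and the remaining 8 were not called.

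Both psmb10 and mhc2d4b were lower in libraries labelled -/-. A catalytic subunit of the immunoproteasome, which cuts peptides for presentation on MHC class I, is encoded by psmb10, at bases 77207693 to 77218637. It had 4.67, 4.36 and 4.39 TPM in libraries labelled -/- and 8.45, 8.34 and 10.4 TPM in libraries labelled +/+. There was no overlap, and the ratio of means was 0.493 (log2 fold change -0.94 ± 0.12 SE, limma adjusted p 0.0049). The call was kept in each fit that left out 1 library. An MHC class II gene, mhc2d4b, had 0.828, 0.921 and 1.02 TPM in libraries labelled -/- and 1.56, 1.45 and 1.72 TPM in libraries labelled +/+, with a log2 fold change of -0.54 (limma adjusted p 0.0179), and its call was lost in at least 1 fit that left out a library. It is a member only through the libraries labelled +/+, as only 1 library labelled -/- reached 1 TPM, so its test is a description. Close to psmb10, ENSDARG00000105689.2 had 1.47, 1.32 and 1.38 TPM in libraries labelled -/- and 2.85, 2.68 and 2.79 TPM in libraries labelled +/+ (log2 fold change -0.79, limma adjusted p 0.0066). It overlaps si:dkey-172k15.6 on the same strand, so the assignment of its reads is uncertain.

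A group of 3 called genes without a symbol lay beside ribosomal RNA genes, at separate places on the arm. Near 68.56 Mb, ENSDARG00000111458.1 had 293, 228 and 167 TPM in libraries labelled -/- and 109, 76.8 and 92.7 TPM in libraries labelled +/+. Its neighbour ENSDARG00000111460.1 had 36.7, 26.0 and 17.3 TPM in libraries labelled -/- and 11.7, 8.83 and 9.28 TPM in libraries labelled +/+. Near 77.56 Mb, ENSDARG00000115988.1 had 253, 200 and 141 TPM in libraries labelled -/- and 100, 73.9 and 78.8 TPM in libraries labelled +/+. The groups did not overlap in any of the 3, and within the -/- label the order of the libraries was the same in each. Log2 fold changes were 1.28, 1.33 and 1.20, with limma adjusted p of 0.0092, 0.0128 and 0.0108. The last 2 lost the call without replicate 2 labelled +/+ (limma adjusted p 0.0617 and 0.0544).

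These genes followed each other closely across libraries. The members most like ENSDARG00000111460.1 in log2(TPM + 0.5) over the 6 libraries were ENSDARG00000115988.1 (Pearson r 0.998), zgc:165515 (0.993) and ENSDARG00000111458.1 (0.993), as a description over libraries that include the compared groups. The 5.8S gene near 68.57 Mb had 26.8, 16.8 and 6.28 TPM in libraries labelled -/- and 16.7, 9.34 and 7.46 TPM in libraries labelled +/+, so its groups overlapped, and it was not called. Both ENSDARG00000111458.1 and ENSDARG00000111460.1 lie wholly within the member ENSDARG00000113526.1, which is on the other strand. That member had 3.93, 2.88 and 0 TPM in libraries labelled -/- and 0, 0.115 and 1.01 TPM in libraries labelled +/+, and was not called. ENSDARG00000111458.1 and ENSDARG00000115988.1 both span 168 bases, and if they are copies of one repeat their reads could be split between them. Their levels are therefore uncertain.

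At the distal end, slco1d1, which encodes an organic anion transporter, had 31.7, 28.0 and 37.0 TPM in libraries labelled -/- and 13.2, 14.4 and 21.8 TPM in libraries labelled +/+. The groups did not overlap, and the ratio of means was 1.96 (log2 fold change 0.97 ± 0.19 SE, limma adjusted p 0.014), but the call was lost without replicate 1 or replicate 2 labelled +/+. Further on, the tubulin polyglutamylase gene ttll1 (log2 fold change 0.68), the Arf GTPase-activating protein gene arfgap3 (0.53) and both genes named cct2, for a subunit of the TRiC chaperonin, were called higher. The cct2 genes were the most abundant of these. One had 194, 170 and 225 TPM in libraries labelled -/- and 111, 119 and 144 TPM in libraries labelled +/+, and the other had 264, 240 and 313 TPM in libraries labelled -/- and 157, 168 and 215 TPM in libraries labelled +/+. They share a name and lie on opposite strands, and if they are alike in sequence their reads could be split between them. Sequences were not used. On the same strand, ttll1, arfgap3, terfa and the cct2 gene on the plus strand overlap si:dkey-238k10.2. The other cct2 gene overlaps it on the opposite strand. That model was called lower (log2 fold change -0.39), and the assignment of reads among these models is uncertain. The telomere-binding factor gene terfa, in the same stretch, was not called, with a log2 fold change of 0.16.

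Zinc finger genes were mostly not called, as were members in general. Of the zinc finger members 20.8% were called, beside 21.2% of all members and 39.6% of all tested genes. Of the 24 members with a zinc finger symbol, 2 were called higher, 3 were called lower and the median log2 fold change was 0.07, and after rescaling 1 was higher and 4 lower. On chromosome 4 before the arm 1 of 57 such genes was called higher and 4 lower, and on the other chromosomes 46 of 159 were called higher and 11 lower. Mean levels differed too, with a median of 1.38 TPM for zinc finger members and 5.38 TPM for those on other chromosomes. An example is znf1129, with 2.74, 1.85 and 2.49 TPM in libraries labelled -/- and 1.05, 1.59 and 1.20 TPM in libraries labelled +/+, called higher (limma adjusted p 0.0231). The next zinc finger member, znf1077, had 0.781, 0.904 and 0.723 TPM in libraries labelled -/- and 1.42, 1.02 and 1.22 TPM in libraries labelled +/+, called lower (limma adjusted p 0.0494), but it is a member only through the libraries labelled +/+. Between 60 and 72 Mb, 3 of 99 members were called higher and 5 lower, beside 30.8% and 8.76% of all tested genes. After rescaling 3 of these 99 were called higher and 17 lower, beside 22.0% and 22.4%. The largest decrease between 60 and 72 Mb was si:dkey-82i20.2, with 2.15, 1.73 and 1.72 TPM in libraries labelled -/- and 3.85, 3.19 and 3.28 TPM in libraries labelled +/+ (log2 fold change -0.74, limma adjusted p 0.0124).

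Calls in the other segments also moved with the scaling, beside 30.8% of all tested genes higher and 8.76% lower with TPM as deposited, and 22.0% higher and 22.4% lower after rescaling. Between 72 and 74 Mb, 3 of 44 members were called higher and 5 lower, and after rescaling 3 higher and 13 lower. Between 74 and 76 Mb, 13 of 31 were called higher and 1 lower, and after rescaling 7 higher and 1 lower. Between 76 and 77 Mb, 2 of 46 were called higher and 9 lower, and after rescaling 1 higher and 16 lower. Beyond 77 Mb, 8 of 35 were called higher and 5 lower, and after rescaling 6 higher and 12 lower. Counts by kind of gene were as follows, with no test of the difference. Of the 27 genes with other symbols, 14 were called higher and 2 lower, and after rescaling 10 higher and 4 lower. Of 151 clone-named members 6 were called higher and 11 lower, with a median log2 fold change of 0.00, and after rescaling 4 higher and 38 lower, with a median of -0.18. Median levels were 7.54 TPM for the 27 and 1.79 TPM for the clone-named members. Models overlapped in many places: 99 members overlap another listed gene on the same strand, where the split of reads between them is uncertain.

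Lists of genes linked to the known content of the arm, mostly from elsewhere in the genome, were read from the same fit. Whether any member is an NLR gene was not examined. Among 11 tested genes of inflammasome and NLR signalling, none was called higher, beside 30.8% of all tested genes, and 2 were called lower, beside 8.76%. After rescaling none of the 11 was higher and 3 were lower, beside 22.0% and 22.4% of all tested genes. The inflammasome adaptor gene pycard stood at 110, 102 and 90.4 TPM in libraries labelled -/- and at 143, 146 and 130 TPM in libraries labelled +/+ (log2 fold change -0.47). The caspase gene caspa stood at 10.2, 10.9 and 10.1 TPM in libraries labelled -/- and at 13.8, 14.8 and 14.3 TPM in libraries labelled +/+ (-0.44). Among 27 tested genes of heterochromatin and DNA methylation, 11 were called higher, beside 30.8% of all tested genes, and none lower, beside 8.76%. After rescaling 9 of the 27 were called higher and 3 lower, beside 22.0% and 22.4% of all tested genes. The maintenance DNA methyltransferase gene dnmt1 stood at 24.7, 18.9 and 29.8 TPM in libraries labelled -/- and at 10.8, 11.4 and 15.8 TPM in libraries labelled +/+ (0.92). The histone methyltransferase gene ehmt1b stood at 7.54, 8.48 and 11.98 TPM in libraries labelled -/- and at 4.54, 3.63 and 5.20 TPM in libraries labelled +/+ (0.98). The only member of the arm on either list was trim24.

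Of the remaining marker lists, 2 of 5 keratinocyte genes and 2 of 3 liver genes were called lower, 1 of 4 muscle genes and 1 of 2 exocrine pancreas genes were called higher, and none of 3 erythrocyte or 2 macrophage and neutrophil genes was called. Over all tested genes, 30.8% were called higher and 8.76% lower. After rescaling, 2 of 3 erythrocyte genes and 1 of 2 macrophage and neutrophil genes were called lower, beside 22.4% of all tested genes. There no muscle or exocrine pancreas gene was called, and the keratinocyte and liver counts stayed the same. No germ cell marker reached the level for testing. Summed keratinocyte markers stood at 10261 to 11366 TPM in libraries labelled -/- and at 12357 to 13304 TPM in libraries labelled +/+, and summed liver markers at 9399 to 10582 TPM in libraries labelled -/- and at 10071 to 12686 TPM in libraries labelled +/+. No gene of these lists was listed at 0 in all libraries. For the macrophage and neutrophil markers, the sums were 66.0 to 70.1 TPM in libraries labelled -/- and 69.7 to 75.8 TPM in libraries labelled +/+. The part of these cells in the values of psmb10 and the ms4a17a genes was not tested.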

How the data were processed

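Polyadenylated RNA of pooled larvae was sequenced as paired reads of 75 bases from stranded libraries, per the labels' protocols. The authors deposited, for each library, a gene abundance table with coverage as a signal per base, FPKM and TPM, and a table of comparisons with mean normalized counts as a score, log2 fold changes and p-values. Per the submitters' processing notes, the tools were StringTie 1.3.3b, STAR 2.5.3a and DESeq2 1.16.1; the notes list hg38 and danRer11 as builds and give neither a role. Coordinates are those of the deposited tables, whose build is not stated in them. No counts per library were used, so precision is judged from the spread of 3 libraries per label.

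TPM rows of one gene ID were summed, genes with at least 1 TPM in 3 of 6 libraries were kept (20330 of 32520), and log2(TPM + 0.5) was fitted with limma 3.58.1 in R 4.3.3 (eBayes with a trend), adjusted by Benjamini-Hochberg over all of them. Fold changes on this scale understate changes of low genes. Fits that leave out libraries keep this gene set. The method was tested on simulated data, where it recovered 74% of 100 changes of log2 size 1 and 98% of 100 changes of size 2. The simulated noise was independent between libraries, with no scaling difference and no shared replicate effect. It therefore does not show how the method behaves where these are present. Alternatives were other pseudocounts, filters, FPKM, rescaling by the median gene ratio, quantile normalization, a replicate block, leaving out libraries, and other limits of the arm and rules for runs. Deviations from group means of same-numbered libraries correlated at 0.25, 0.19 and 0.48 across genes. Replicate 2 labelled -/- correlated more with replicate 1 labelled +/+ (0.29) than with replicate 2 labelled +/+. The remaining pairs of unlike number correlated at -0.42 to 0.066. The labels name no shared clutch, and the replicate numbers come from the sample titles.

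Genes were named as all members of runs, the 8 largest called changes without overlap in each direction, members listed at 0 in one group, the 2 nearest members on each side of a run, and stim2a and stim2b; further genes were chosen after their values were seen. Members and gene lists (inflammasome and NLR, heterochromatin, cell type markers) were chosen with earlier results of these data known. For 15 members a family symbol was resolved to a paralog through RefSeq names. Sequences were not used here.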

Additional observations from a re-analysis of the deposited data

How the results depend on the processing

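The number of called members was 54 with TPM as deposited. It was 83 after quantile normalization, 83 with the replicate block and 93 with the block and rescaling. Of all 20330 tested genes, these fits called 8390, 11960 and 11722, beside 8046 with TPM as deposited. Among the 43 members with a mean of at least 5 TPM, 23 were called, beside 41.0% of all genes at that level. Leaving out 1 library gave 11 to 55 called members, beside 657 to 9677 of all 20330 tested genes. The number of runs was 3, and 1 to 4 when 1 library was left out. It was 6 after rescaling, 8 after quantile normalization, 5 with the replicate block, 9 with the block and rescaling, and 5 without both replicates numbered 3, an alternative chosen after seeing the data. It was 9 for runs of at least 2 members, 8 for members whose groups do not overlap, and 1 for called members whose log2 fold change reached 1 in either direction. Run counts over the other tested genes are given for the main fit only. The median log2 fold change of members, 0.08, was -0.11 after rescaling, with or without the replicate block, -0.15 after quantile normalization, 0.0012 with FPKM and 0.21 at a mean of at least 5 TPM. The 3-gene run near 72.5 Mb was called in all of these fits, which is a description, since its genes are members only through the libraries labelled +/+. Among the genes named by rule, signs turned only in members beside the runs that were not called. After rescaling, with or without the block, zgc:175107 had -0.081, si:ch211-161m3.4 -0.17 and ms4a17a.1 -0.049. After quantile normalization si:ch211-161m3.6 had -0.026, zgc:175107 -0.18, si:ch211-161m3.4 -0.17, ms4a17a.2 -0.031 and ms4a17a.1 -0.13. In si:ch211-161m3.4 the value was also -0.057 with FPKM, -0.095 to 0.091 when 1 library was left out, and -0.069 without both replicates numbered 3. The cause of these shifts was not tested. With pseudocounts of 0.1 and 1, 53 members were called each time, beside 8031 and 8014 of all 20330 tested genes. Read depth is not given directly in the tables used here. As a rough guide to it, the most frequent ratio of coverage to FPKM was 5.49, 4.64 and 5.93 in libraries labelled -/-. In libraries labelled +/+ this ratio was 5.82, 5.75 and 5.53. The effect of read depth was not tested. With 3 libraries per label, an exact two-sided permutation test of 1 gene cannot go below 0.1.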

Other observations

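Some genes near the members stood out in single libraries or outside the limits of the arm. Beside the ribosomal RNA gene near 77.56 Mb, ENSDARG00000115978.1, which is no member, was listed at 262.5 TPM in replicate 2 labelled -/- and at 0 in the other 5 libraries. Just before the arm, at bases 58768257 to 58773146, ENSDARG00000101382.2 stood at 1.44, 1.01 and 1.03 TPM in libraries labelled -/- and was listed at 0 in all 3 libraries labelled +/+, the opposite direction to the 3-gene run.

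Neighbouring members called in opposite directions occurred at 7 places along the arm. Of 22 adjacent pairs with both members called, 68.2% were called in the same direction, beside 74.2% of such pairs among all other tested genes. Besides ms4a17a.16 and ms4a17a.11, with log2 fold changes of 0.65 and -0.52, the pairs called in opposite directions include znf1009 and psmb10, with 0.47 and -0.94, and si:cabz01069013.3 and ENSDARG00000116221.1, with -1.11 and 0.66. By the rule of groups that do not overlap, which 55.8% of all tested genes met, a further stretch of 7 clone-named members was higher in libraries labelled -/-. It ran from base 75603917 to 76270779, with log2 fold changes of 0.09 to 0.54, beside a median of 0.22 over all tested genes. In the authors' deposited table the signs of these members were mixed, from -0.49 for si:dkey-165o8.2 to 0.10 for si:dkey-261j11.2. Some of the models overlap on the same strand, such as si:ch211-106j21.4 and si:dkey-261j11.2, by 89458 bases. Of these, si:dkey-261j11.5 and si:dkey-165o8.2 were called by limma (adjusted p 0.0331 and 0.0230).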
